A study of Mus musculus with 2 samples.

Results

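The genes described here encode the membrane skeleton of the axon initial segment and of the adhesion complexes that later line the nodes of Ranvier: the ankyrins Ank1, Ank2 and Ank3, the spectrins Sptan1, Sptbn1 and Sptbn4, the ankyrin-binding adhesion molecule Nfasc, and the contactin-associated proteins Cntnap1 and Cntnap2. They were chosen by name, with earlier results of these data known, and all 9 were found among the 43346 genes quantified. RNA came from midbrain tissue of mice on postnatal day 0, of strain B6NTac;B6NCrl/Lap, with males and females pooled. The 2 libraries form 1 group, described by the labels as independent isolates. Replicate 1 came from a pool of 15 animals, and the labels give no pool size for replicate 2. The RNA was depleted of ribosomal RNA and was not selected for poly(A) tails. The libraries were stranded and contained spike-in RNAs. The labels name no transgene and no treatment.

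Spectrins are long, flexible tetramers of alpha and beta subunits that cross-link short actin filaments beneath the plasma membrane. Ankyrins bind beta spectrin on one side and membrane proteins, such as ion channels and L1-family adhesion molecules, on the other. In neurons, ankyrin-G and beta-IV spectrin gather sodium and potassium channels at the axon initial segment, where action potentials start. Once axons are myelinated the same complexes form at nodes of Ranvier, flanked by paranodal and juxtaparanodal junctions that contain contactin-associated proteins.

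Several of these genes make different proteins from alternative exons or starts, and the sequences that set the forms apart are shown first. The Nfasc exon of 237 bases (chr1:132588074-132588310, GRCm38, minus strand) is part of the form known as neurofascin 186, which neurons place at initial segments and nodes. In it, 33 of the 78 whole codons had the form ACN, which encodes threonine, or 42.3% against 8.79% over the whole coding sequence of transcript Nfasc-202. These in-frame codons are in capitals. The second Nfasc exon, of 116 bases (chr1:132600099-132600214, minus strand), is in capitals between flanking exon bases and belongs to neurofascin 155-type forms, known from the glial side of the paranode. The exon of Sptan1, of 60 bases (chr2:30001100-30001159, plus strand), encodes an insert next to the SH3 domain of alpha-II spectrin and is also in capitals between flanking exon bases. The pair of Ank3 sequences shares its end of the preceding exon in lower case. In the first, the capitals begin the giant exon (chr10:69986089-69993762, plus strand), which is specific to the large neuronal forms of ankyrin-G. In the second they begin the exon that follows the giant exon (chr10:69994372-69994446), joined here directly to the preceding one as in forms that skip the giant exon. All are GENCODE release M21 sequences, 5′ to 3′.
Nfasc exon 237: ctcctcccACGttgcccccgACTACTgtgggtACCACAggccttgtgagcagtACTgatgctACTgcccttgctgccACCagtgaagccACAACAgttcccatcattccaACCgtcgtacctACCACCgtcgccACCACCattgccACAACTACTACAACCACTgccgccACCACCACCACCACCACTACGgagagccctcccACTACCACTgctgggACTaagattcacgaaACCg
Nfasc exon 116: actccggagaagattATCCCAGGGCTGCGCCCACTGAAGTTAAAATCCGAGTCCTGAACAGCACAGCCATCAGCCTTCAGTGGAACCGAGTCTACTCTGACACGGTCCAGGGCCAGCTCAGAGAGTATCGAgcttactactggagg
Sptan1 exon 60: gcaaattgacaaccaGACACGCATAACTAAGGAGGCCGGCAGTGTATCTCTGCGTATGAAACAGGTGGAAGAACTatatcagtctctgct
Ank3 into the giant exon: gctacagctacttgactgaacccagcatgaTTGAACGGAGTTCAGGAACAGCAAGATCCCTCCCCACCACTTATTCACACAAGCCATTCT
Ank3 past the giant exon: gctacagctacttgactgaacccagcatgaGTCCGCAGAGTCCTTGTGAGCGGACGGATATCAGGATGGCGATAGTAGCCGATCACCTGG

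Neurofascin and its relatives hold on to ankyrins through a short motif in their cytoplasmic tail, searched here as codons in frame on the coding strand, with either a glutamine or an alanine codon in its middle. Of 54145 coding transcripts in GENCODE M21 with an annotated start, 25 held the motif (0.0462%), from 11 genes. These included all members of the L1 family, Nfasc, Nrcam, L1cam and Chl1. The motif was written to fit this family, alanine codon included, so that result was built into the search and tests nothing. The other genes, outside the family, were Cspp1, Morc1, Mrgpra3, Plcd4, Plcl1, Plcl2 and Tm9sf2. The motif is in capitals below, within 60 coding bases each. It lies at chr1:132570507-132570521 (minus strand) in Nfasc, chr12:44598486-44598500 (plus) in Nrcam, chrX:73855122-73855136 (minus) in L1cam and chr6:103729249-103729263 (plus) in Chl1. Chl1 matched through the alanine codon and the others through the glutamine codon. Of the 60 bases, Nrcam shared 49 with Nfasc at the same place, L1cam 50 and Chl1 41.
Nfasc: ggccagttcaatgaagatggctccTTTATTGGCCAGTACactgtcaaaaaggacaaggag
Nrcam: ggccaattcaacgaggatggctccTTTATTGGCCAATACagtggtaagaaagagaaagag
L1cam: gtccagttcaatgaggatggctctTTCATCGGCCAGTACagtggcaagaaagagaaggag
Chl1: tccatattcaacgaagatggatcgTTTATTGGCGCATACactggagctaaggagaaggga

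The estimated counts summed to 46685706 in replicate 1 and to 72779229 in replicate 2. TPM, the abundance scale that corrects for transcript length and depth, sums to the same total in each library. Protein-coding genes took 22.4% of it in replicate 1 and 19.8% in replicate 2, and detected genes had a median log2 ratio of TPM, replicate 2 over replicate 1, of -0.27. Differences between the libraries are therefore given on counts scaled by trimmed means (TMM). Midbrain identity genes were present, with all 8 of the list at 1 TPM or more in both libraries, as were all 8 neuronal markers, all 6 of astrocytes and radial glia, all 5 of microglia and all 4 of endothelium. For example, Otx2, a transcription factor of the midbrain, was at 18.3 TPM in replicate 1 and 15.9 in replicate 2. With 2 samples the smallest two-sided p of an exact sign test is 0.5, so no test was run, and levels and differences are given with their spread only.

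All 9 genes were detected, at 1 TPM or more in both libraries, against 53.8% of protein-coding genes and 27.7% of all genes. Together they made up 467 TPM in replicate 1 and 362 in replicate 2. Their levels spanned a wide range, from Sptan1 among the most abundant protein-coding mRNAs to Cntnap1, the lowest of the 9. In a bulk sample, fewer cells of a type and less RNA per cell cannot be told apart.

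Among the ankyrins, Ank2 and Ank3 were high and Ank1 low. Ank2 (ENSMUSG00000032826.12, chr3:126921612-127499350) encodes ankyrin-B, the broad axonal and dendritic ankyrin. It stood at 87.7 TPM in replicate 1 and 66.8 in replicate 2, or 77.2 ± 14.8 (SD, n = 2), and ranked 296 and 380 among protein-coding genes. Ank3 (ENSMUSG00000069601.9, chr10:69398773-70027438) encodes ankyrin-G, the organiser of the initial segment. Its level was 68.8 TPM in replicate 1 and 46.2 in replicate 2, a mean of 57.5 ± 16. The ranges of Ank2 and Ank3 overlapped, although Ank2 was above Ank3 within each library, by log2 ratios of 0.35 and 0.53. Over transcripts coding in M21 alone the order turned, with a mean log2 ratio of -0.81. Ank1 (ENSMUSG00000031543.14, chr8:22974844-23150497), best known as the ankyrin of red cells, was at 4.57 TPM in replicate 1 and 5.99 in replicate 2, or 5.28 ± 1. Ank2 exceeded Ank1 by a mean log2 ratio of 3.84 ± 0.55 (14.4-fold) and Ank3 by 3.40 ± 0.68 (10.6-fold).

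Among the spectrins, Sptan1 and Sptbn1 were high and Sptbn4 low. Sptan1 (ENSMUSG00000057738.9, chr2:29965560-30031451) encodes alpha-II spectrin, the alpha subunit used throughout the brain. It was the highest of the 9, at 171 TPM in replicate 1 and 145 in replicate 2 (158 ± 18.4), ranking 115 and 127 among protein-coding genes. Its range did not overlap that of any other member. Sptbn1 (ENSMUSG00000020315.14, chr11:30099395-30268175) encodes beta-II spectrin, the main beta subunit of the axon shaft, and reached 78.2 TPM in replicate 1 and 54 in replicate 2 (66.1 ± 17.1). Sptbn4 (ENSMUSG00000011751.12, chr7:27356383-27447686) encodes beta-IV spectrin of initial segments and nodes. It was at 7.72 TPM in replicate 1 and 4.97 in replicate 2 (6.34 ± 1.94). Sptan1 exceeded Sptbn1 by a mean log2 ratio of 1.28 ± 0.21 (2.43-fold), and Sptbn1 exceeded Sptbn4 by 3.37 ± 0.06 (10.3-fold). Sptbn4 was also below Ank3, its binding partner at the initial segment, by 8.96-fold (log2 ratio -3.16 ± 0.04).

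Of the adhesion molecules, Cntnap2 was the highest and Cntnap1 the lowest. Nfasc (ENSMUSG00000026442.10, chr1:132564690-132741797) was at 14.2 TPM in replicate 1 and 10.8 in replicate 2, a mean of 12.5 ± 2.38. Cntnap2 (ENSMUSG00000039419.12, chr6:45059357-47304213) encodes the juxtaparanodal protein Caspr2, known for clustering Kv1 potassium channels. It had 31.4 TPM in replicate 1 and 25.1 in replicate 2 (28.2 ± 4.45). Cntnap1 (ENSMUSG00000017167.6, chr11:101170523-101190724) encodes Caspr, the axonal side of the paranodal junction, and was at 2.67 TPM in replicate 1 and 2.74 in replicate 2 (2.71 ± 0.0495). Cntnap2 exceeded its paralog Cntnap1 10-fold (log2 ratio 3.33 ± 0.25). Nfasc exceeded Cntnap1 by 4.46-fold (2.16 ± 0.30) and lay 4.51-fold below Ank3 (-2.17 ± 0.13).

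**Figure D1:**
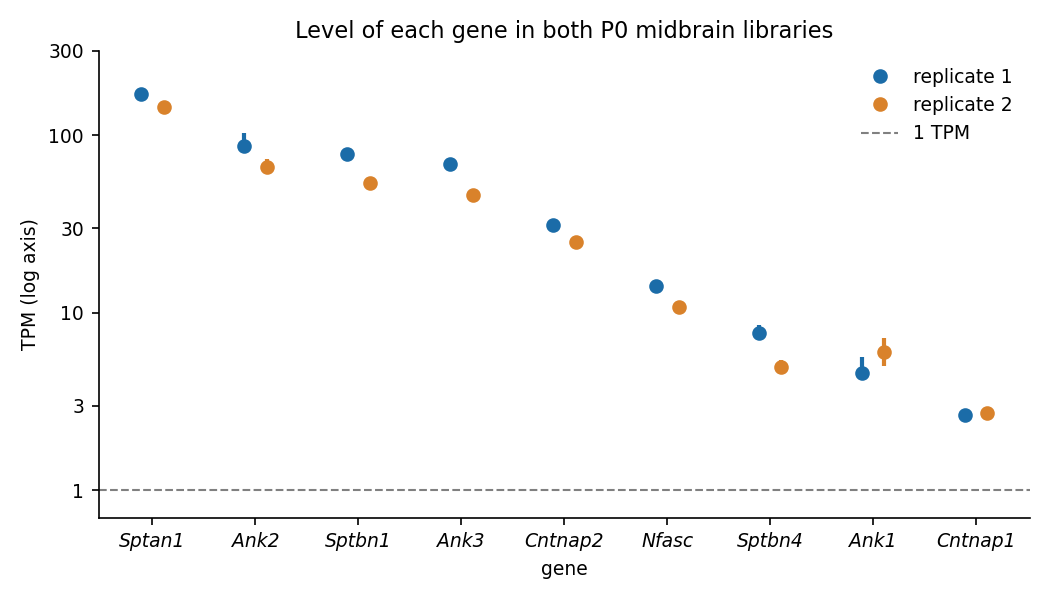
TPM on a log axis for each of the 9 genes in replicate 1 (blue) and replicate 2 (orange); vertical bars are the deposited credibility bounds, which cover read assignment and not variation between isolates, and the dashed line is 1 TPM. Sptan1 stands highest at 171 and 145 TPM, Ank2, Sptbn1 and Ank3 form overlapping ranges between 46.2 and 87.7, and Cntnap1 lies lowest at 2.67 and 2.74.

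In the order of mean levels, the ranges of Ank2, Sptbn1 and Ank3 overlapped between neighbours, and so did those of Sptbn4 and Ank1. The other neighbours in the order did not overlap. Sptbn4 was above Ank1 in replicate 1 and below it in replicate 2. In replicate 2, 2.32 of the 5.99 TPM of Ank1 came from Ank1-211, a retained-intron transcript of 416 bases with 45 counts, which had 0 in replicate 1. Counting transcripts of at least 1000 bases, a limit set after the values were seen, Ank1 was at 4.58 TPM in replicate 1 and 3.66 in replicate 2, against 7.12 and 4.58 for Sptbn4. On that scale Sptbn4 was above Ank1 in both libraries.

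None of the 9 differed by 2-fold between the libraries, against 1.00% of detected protein-coding genes and 17.0% of all genes with at least 10 counts in sum. On TMM-scaled counts their log2 ratios of replicate 2 over replicate 1 ran from -0.43 for Sptbn4 to 0.32 for Cntnap1, with a median of -0.15. The SD over detected protein-coding genes was 0.33. Sptbn4 had 3207 counts in replicate 1 and 3611 in replicate 2, and 84.8% of those genes had a difference as small or smaller. Cntnap1, with 1055 and 2006 counts, was the only member above 0 on this scale. Sptan1, Ank2, Ank3 and Cntnap2 lay between -0.14 and -0.17, Nfasc at -0.20, Sptbn1 at -0.27 and Ank1 at -0.06.

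**Figure D2:**
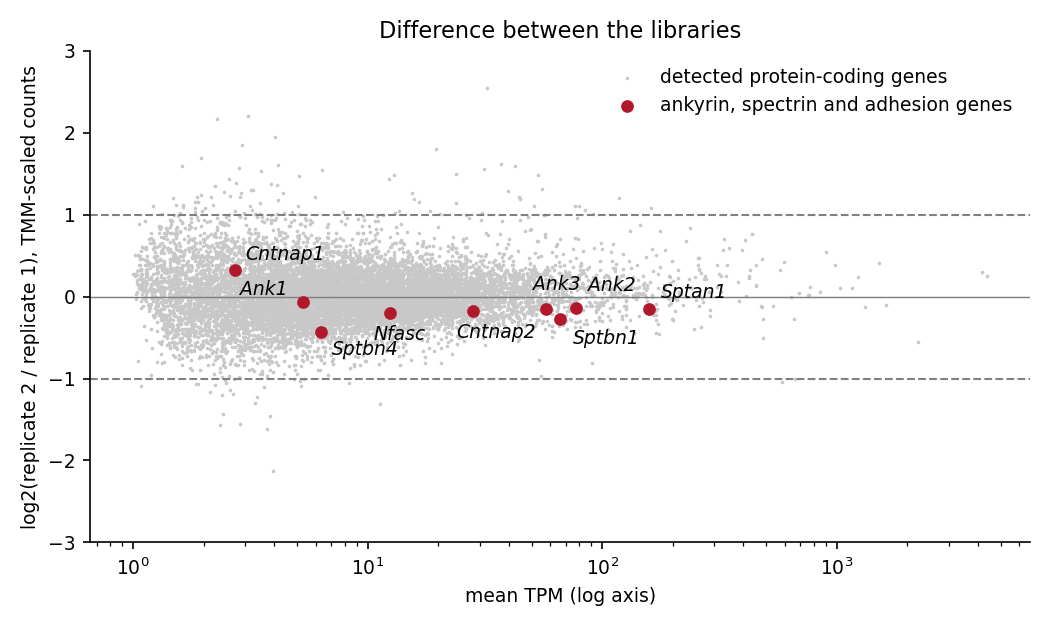
Mean TPM (log axis) against the log2 ratio of replicate 2 over replicate 1 on TMM-scaled counts for detected protein-coding genes (grey) and the 9 genes (red); 2 grey points lie outside the axis and dashed lines mark 2-fold. All 9 genes lie within the dashed lines, from -0.43 for Sptbn4 to 0.32 for Cntnap1.

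Pairs of paralogs and partners were compared within each library as log2 ratios of TPM + 0.1, and 13 of the 16 were at least 2-fold apart the same way in both, against 57.3% of all pairs of detected protein-coding genes. Sptan1 was 25.1-fold above Sptbn4 (4.65 ± 0.27). Sptbn1 exceeded Sptb, the red-cell beta spectrin, 10.1-fold (3.34 ± 0.28). Cntnap1 was 20.6-fold below Cntn1, the contactin that it binds in cis (-4.37 ± 0.12).

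The pairs not 2-fold apart in both libraries were Ank2 with Ank3, Nfasc with Nrcam, and Cntnap2 with Cntn2. Nrcam, another ankyrin-binding molecule of the initial segment, was at 23.3 TPM in replicate 1 and 16.8 in replicate 2. Nfasc was lower than Nrcam in both, by log2 ratios of -0.71 and -0.63. Cntn2, the partner of Cntnap2 at the juxtaparanode, had 11.8 TPM in replicate 1 and 12.7 in replicate 2. Cntnap2 exceeded it by log2 ratios of 1.40 and 0.97, past 2-fold in replicate 1 alone.

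Transcript shares were read from the deposited percentages, which divide the TPM of a gene among its transcripts. The same transcript led in both libraries in 6 of the 9 genes, against 82.8% of detected protein-coding genes with 2 or more transcripts. The exceptions were Ank1, Ank2 and Cntnap2. Transcripts with a coding sequence of at least 0.5 of the longest one of the gene, called full-length here, made up the largest class in both libraries in 6 of the 9, against 69.5%. Sptbn4 led with shorter coding forms, while most of Ank2 and all of Cntnap2 were not classed, because their models in the files are absent from the M21 annotation or differ in length from it. Short transcripts weigh more by TPM than by counts, so shares of counts are given beside those of TPM where they change the picture.

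**Figure D3:**
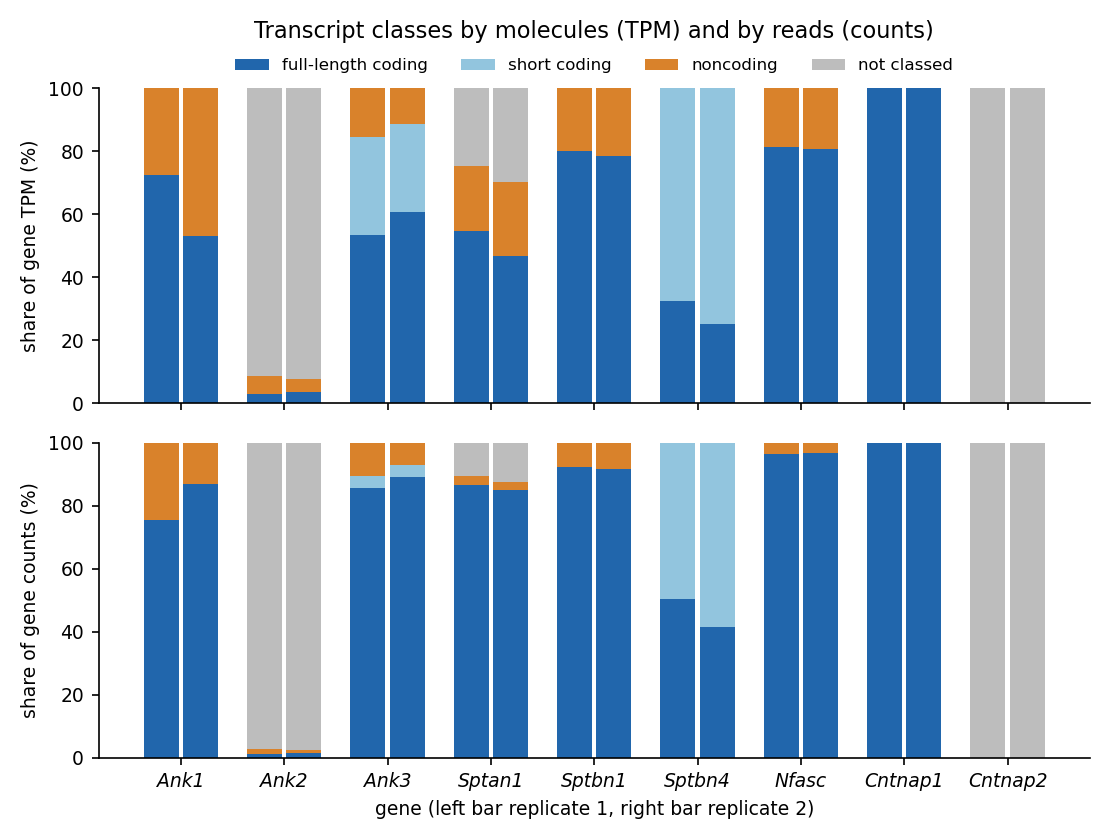
Percent of each gene's TPM (top) and of its estimated counts (bottom) in full-length coding, short coding, noncoding and unclassed transcripts, with replicate 1 as the left bar and replicate 2 as the right bar of each gene. Sptbn4 shows the largest class of short coding forms, at 67.7% and 74.9% of TPM, and the noncoding class of Ank1 is larger in replicate 2 by TPM (27.7% and 47%) and smaller in replicate 2 by counts (24.6% and 13.1%).

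Ank3 RNA included forms with the giant exon. Of its 44 transcripts, 6 have exon bases inside that exon, and together they held 43.9% of Ank3 TPM in replicate 1 and 50.9% in replicate 2, or 46.1% and 50.1% of its counts. The 3 among them with a coding exon of at least 2000 bases held 26.9% and 31.7% of TPM, or 44.3% and 48.1% of counts. The leading one, Ank3-244, is a fragment model of 8612 bases without an annotated start or end of its coding sequence, of which 7674 bases are the giant exon. It carried 20.8% of TPM in replicate 1 and 23.5% in replicate 2. Ank3-233 uses a shorter version of 2550 bases, of which 2544 lie within the giant exon, and held 2.43% and 4.9%. Ank3-225, annotated as a target of nonsense-mediated decay, held 3.61% and 3.23%. The remaining 3 are short models that share 22 to 784 bases with the giant exon. One of them, Ank3-238, took 10.4% of TPM in replicate 1 and 4.92% in replicate 2 from 34 and 20 counts.

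Ank3 forms that skip the giant exon encode the smaller ankyrin-G proteins. Their shares below are those of transcript models. The leading model with the giant exon is a fragment that lacks the early exons of Ank3-202. Reads from those exons can be assigned to skipping forms even where the molecule held the giant exon. The share of Ank3 molecules that skip the giant exon was not tested. Ank3-202, of 1922 codons, held 6.51% of TPM in replicate 1 and 13.5% in replicate 2. Ank3-231, of 1961 codons, held 6.98% and 9.47%, and Ank3-240, of 1807 codons, held 8.54% and 8.04%. Ank3-210, of 1726 codons, held 8% and 1.07%. By counts these 4 forms had 7.62%, 14.4%, 12% and 10.4% in replicate 1, and 14.3%, 17.8%, 10.3% and 1.26% in replicate 2, so Ank3-202 was higher and Ank3-210 lower in replicate 2 on both scales. Transcripts under 1000 bases took 25.2% of Ank3 TPM in replicate 1 and 17.5% in replicate 2, yet 1.7% and 0.731% of its counts.

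Ank2 also has a giant exon, in the neuronal form of ankyrin-B found in growing axons, but the models of the files could not be matched to it. Transcripts that were not classed held 91.3% of Ank2 TPM in replicate 1 and 92.4% in replicate 2. Of these, the 8 absent from M21 held 39.4% and 38.5%, and the 16 that differ in length 51.9% and 53.9%. The 6 transcripts of at least 10000 bases, a limit chosen after the values were seen, held 39.4% and 38.4% of TPM and 63% and 62.6% of counts. Whether these long models contain the giant exon was not determined. The leading transcript was an unnamed model of 13865 bases in replicate 1, at 17.8%, and Ank2-208 in replicate 2, at 15.8%.

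Ank1 was split among several forms whose shares differed widely between the libraries. Ank1-209, which encodes 1907 codons, held 53.6% of TPM in replicate 1 and 11.9% in replicate 2, from 1489 and 802 counts. Ank1-204, which starts in the same group, differed the other way, with 6.49% in replicate 1 and 14% in replicate 2. All forms from the first start group together held 60% of TPM in replicate 1 and 25.9% in replicate 2, and 66.6% and 40.8% of counts. Those of the third start group held 19.2% and 20.1% of TPM, but 19.9% and 36.9% of counts. The 3 short coding forms from an internal start near the end of the gene, which include the small ankyrins known from muscle, were at 0 in both libraries.

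Markers of red cells were present beside Ank1. Of 10 erythroid genes, 6 were detected, with a summed level of 595 TPM in replicate 1 and 733 in replicate 2, and Hba-a2, an alpha globin, was at 284 and 380 TPM. Hba-a1, Hbb-bs and Hbb-bt were also among the leading genes of the list, at 120, 152 and 30.7 TPM in replicate 1. Red-cell membrane genes whose proteins bind ankyrin were low. Epb42, which encodes the ankyrin-binding protein 4.2, had 0 counts in both libraries, and Slc4a1, the anion exchanger that binds ankyrin-1, had 22 counts in replicate 1 and 123 in replicate 2. Sptb was at 6.64 and 6.01 TPM. The part of red cells in the level of Ank1 was not tested. Of 7 skeletal muscle markers, 1 was detected, and the muscle creatine kinase Ckm had 3 counts in replicate 1 and 195 in replicate 2. On TMM-scaled counts, 4 of these 7 and 3 of the 10 erythroid genes were at least 2-fold higher in replicate 2. In both lists 0 were at least 2-fold lower. The share past 2-fold was 1.00% of detected protein-coding genes and 17.0% of all genes with at least 10 counts in sum. The cause of these differences between the isolates was not tested.

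By counts, Sptan1 was carried mainly by long coding forms, at 86.5% in replicate 1 and 84.9% in replicate 2, while by TPM they made up 54.6% and 46.7%. Sptan1-203, of 2477 codons and with the exon of 60 bases, held 43% of TPM in replicate 1 and 37.4% in replicate 2, or 67.9% and 67.8% of counts. Sptan1-204, which lacks this exon, held 11.6% and 9.29% of TPM. The second by TPM, Sptan1-208, is a model of 1434 bases in the files that was not classed, and held 15.3% and 23.4% of TPM but 3.67% and 6.44% of counts. Among full-length transcripts that span it, the exon was included in 78.7% in replicate 1 and 80% in replicate 2 (79.4 ± 0.931). A retained-intron transcript of 457 bases, Sptan1-207, took 16.4% and 20.6% of TPM but 0.604% and 0.87% of counts.

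Sptbn1 was mostly Sptbn1-202, at 67.9% in replicate 1 and 61.1% in replicate 2. Sptbn1-201, with the same 2363 codons but another start, held 9.07% and 15.5%. Sptbn1-203, with a shorter coding sequence of 2154 codons, held 2.81% and 1.81%. The retained-intron form Sptbn1-207 took 16% and 18.3% of TPM and 6.16% and 7.12% of counts.

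Sptbn4 was the member in which a short coding form led in both libraries. Sptbn4-203, of 1241 codons, starts inside the gene and lacks the first part of the protein, which holds the actin-binding domain, as in the Sigma6 form of beta-IV spectrin. It held 54.5% of Sptbn4 TPM in replicate 1 and 66.9% in replicate 2. Sptbn4-201, which encodes the whole protein of 2561 codons (the Sigma1 type), held 32% and 25.1%. By counts the order was less clear, since Sptbn4-203 had 44.8% in replicate 1 and 58.1% in replicate 2, against 50.1% and 41.6% for Sptbn4-201. The short form was thus ahead in both libraries by estimated TPM, and ahead in replicate 2 alone by estimated counts. Apart from its first exon, all exons of Sptbn4-203 are also exons of Sptbn4-201, so most of its reads could come from either form. These shares are those of transcript models, and the share of each form among Sptbn4 molecules was not tested.

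RefSeq places a separate promoter at each of these starts, and both are rich in CG dinucleotides, which read the same on both strands and are in capitals below. Promoter sequences of the RefSeq table (GRCm38.p6, 300 bases each, ending 50 bases after the start) were found for 6 of the 9 genes, with 15 entries. The promoter 10 bases from the start of Sptbn4-201 (chr7:27446540-27446839, minus strand) held 41 CG, a number that 3.46% of 32851 promoters reached, and the one at the start of Sptbn4-203 (chr7:27396504-27396803, minus strand) held 33, reached by 8.56%. The median promoter held 7. Sptbn4 had other entries too, with 24 CG (20%) and, at the start of the short form Sptbn4-202, 1 CG (94.6%). For comparison, Cntnap2 had 14 CG at the start of Cntnap2-202 (36.3% had as many) and 3 beside the internal start of Cntnap2-201 (76.7%). The Sptan1 promoter held 37 (5.58%). The Sptbn1 entries held 2 at the start of Sptbn1-202 (85.9%) and 21 at that of Sptbn1-203 (24.8%). The Nfasc entries held 7 and 3, but neither is at the first start group of Nfasc. That group, which includes Nfasc-202, held 75.9% of Nfasc TPM in replicate 1 and 80% in replicate 2.
Sptbn4-201 promoter: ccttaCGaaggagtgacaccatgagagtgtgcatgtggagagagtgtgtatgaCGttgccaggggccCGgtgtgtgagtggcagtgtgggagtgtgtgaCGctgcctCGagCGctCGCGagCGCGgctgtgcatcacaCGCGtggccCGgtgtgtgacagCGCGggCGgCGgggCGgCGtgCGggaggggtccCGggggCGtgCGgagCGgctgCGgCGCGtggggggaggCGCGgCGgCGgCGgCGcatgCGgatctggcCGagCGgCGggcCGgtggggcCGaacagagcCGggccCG
Sptbn4-203 promoter: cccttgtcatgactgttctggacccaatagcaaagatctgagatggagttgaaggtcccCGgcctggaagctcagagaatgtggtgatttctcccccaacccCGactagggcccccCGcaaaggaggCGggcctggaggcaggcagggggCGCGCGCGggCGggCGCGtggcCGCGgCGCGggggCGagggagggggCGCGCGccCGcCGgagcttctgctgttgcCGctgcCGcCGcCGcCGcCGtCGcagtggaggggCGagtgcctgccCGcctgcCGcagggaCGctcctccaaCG

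**Figure D4:**
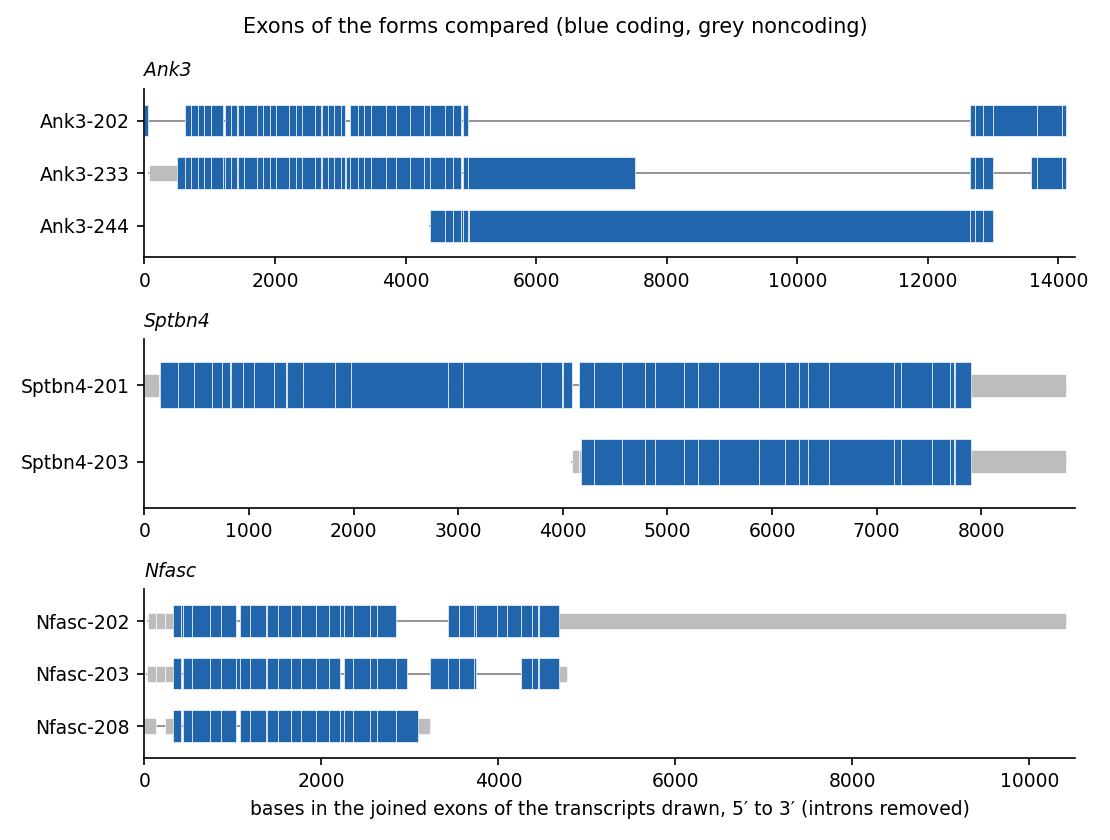
Exons of the forms compared for Ank3, Sptbn4 and Nfasc, drawn to scale in bases of their joined exons from 5′ to 3′ with introns removed; blue boxes are coding, grey boxes noncoding, and thin lines join exons that a form skips. Ank3-244 is dominated by the exon of 7674 bases that Ank3-202 skips, and Sptbn4-203 lacks the first part of Sptbn4-201. Nfasc-202 and Nfasc-203 differ in the exons of 237 and 116 bases, among other exons.

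Nfasc RNA was mainly of the neuronal type. Nfasc-202, of 1240 codons and with the threonine-rich exon, held 64.2% of TPM in replicate 1 and 58.2% in replicate 2, or 89% and 86% of counts. Among full-length transcripts that span them, the exons of 237, 117 and 153 bases were included in 89.9% and 90.4% (90.2 ± 0.41). The exons of 205 and 116 bases were included in 10.1% and 9.99% (10.1 ± 0.108), and Nfasc-207, at under 1% of TPM, has both kinds of exon. Nfasc-208, which ends too early to be among the spanning transcripts, also contains the bases of the exon of 116. With it, transcripts that contain these bases held 17.1% of Nfasc TPM in replicate 1 and 22.4% in replicate 2, or 7.52% and 10.7% of counts. Nfasc-203, the 155-type form of 1174 codons, held 1.89% of TPM in replicate 1 and 5.9% in replicate 2, from 75 and 329 counts. Nfasc-205, another such form, held 5.27% and 0%.

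The ankyrin-binding motif was present in 5 of the 6 coding Nfasc transcripts, which held 71.4% of Nfasc TPM in replicate 1 and 64.6% in replicate 2, and 92.5% and 89.8% of counts. The form without it, Nfasc-208, has 899 codons and ends before the motif. It held 9.82% of TPM in replicate 1 and 15.9% in replicate 2, or 3.98% and 6.89% of counts. In L1cam, the motif was present in 4 of 6 coding transcripts, with 79.2% and 78.3% of TPM.

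Markers of oligodendrocytes, the cells that make neurofascin 155, were split by stage. All 5 precursor markers were detected, with a summed level of 60.2 TPM in replicate 1 and 65.8 in replicate 2. Of 8 genes of myelinating cells, 4 were detected, with sums of 23.7 and 32.2 TPM. Mbp, myelin basic protein, was at 6.74 and 11.9 TPM, Opalin had 0 counts in both, and Mog had 0 in replicate 1 and 2 in replicate 2. Mobp had 0 and 72 counts, and Myrf was at 0.37 and 0.41 TPM. Of the 8 genes of myelinating cells, 2 were at least 2-fold higher in replicate 2 and 0 were at least 2-fold lower. Of the 5 precursor markers, 0 passed 2-fold. The part of these cells in the Nfasc and Cntnap1 levels was not tested.

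Cntnap2 was divided between its long form and a short one from an internal start. Cntnap2-202, which encodes the whole protein of 1332 codons in M21, held 54.9% of TPM in replicate 1 and 47.9% in replicate 2. The short Cntnap2-201, of 1625 bases in the files and 108 codons in M21, held 45.1% and 52.1%, so that the leader changed between the libraries. By counts the long form led in both, with 85.8% and 82.1%. Both models differ in length from their M21 versions. Cntnap1 was represented by 1 form, Cntnap1-201 of 1385 codons, at 100% in both libraries.

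Other genes of the initial segment, the node and the membrane skeleton were mostly detected as well, 72 of 80 listed, against 53.8% of protein-coding genes. These lists were drawn up with earlier results of these data known. Of the 80, 1 differed by 2-fold between the libraries. The median of the 80 was 15 TPM in replicate 1 and 14.4 in replicate 2, against 7.96 and 6.57 for all detected protein-coding genes. All 18 scaffold and cytoskeletal genes were detected. Map2, a dendritic microtubule protein, led them at 321 and 255 TPM, followed by Mapt (tau, 149 and 123), the actin-microtubule linker Macf1 (80.2 and 59.6), the microtubule stabiliser Map6 (72.2 and 63.1) and the scaffold gene Dlg4 (53.1 and 52.7).

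Of 11 adhesion and matrix genes, 10 were detected. L1cam was at 62.2 TPM in replicate 1 and 54.6 in replicate 2, Cntn1 at 60.4 and 55.1, and Chl1 at 67.3 and 44.8. Bcan, the proteoglycan brevican, had 52.9 and 52.1, and Cadm1, an adhesion molecule of axons and synapses, had 49.1 and 36.5. Gldn, which encodes the gliomedin of peripheral nodes, was below 1 TPM, with 76 counts in replicate 1 and 52 in replicate 2, and its log2 ratio of -1.15 was the difference past 2-fold.

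Of 22 channel and pump genes, 20 were detected. Atp1b1, a subunit of the sodium pump, was at 77 TPM in replicate 1 and 60.5 in replicate 2. Scn3b, a sodium channel beta subunit, had 56.8 and 44, and Fgf13, which binds sodium channels, 44.8 and 27.5. The exceptions were Scn4b, another beta subunit, at 0.13 and 0.17 TPM, and Kcna1, the Kv1.1 channel that Caspr2 clusters in adult axons, at 0.54 and 0.73. Kcna1 still had 359 counts in replicate 1 and 905 in replicate 2, or 2.42 and 3.69 with TPM rescaled over protein-coding genes. Kcna2, of the same list, was at 4.21 and 3.68 TPM. The sodium channel alpha subunits were chosen after their values were seen. Scn2a, the early channel of initial segments, was at 39.8 and 26.9 TPM, Scn3a at 27.3 and 17.9, Scn1a at 5.12 and 3.61, and Scn8a, the channel of mature nodes, at 4.61 and 3.61.

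Another beta spectrin gene, Sptbn5, was at 0.33 TPM in replicate 1 and 0.14 in replicate 2. The spectrin-actin genes were detected in 18 of 20 cases. Actb, beta-actin, was at 1110 and 953 TPM, the adducin gene Add1 at 59.5 and 54.7, and Epb41l1, of the protein 4.1 family, at 58.7 and 50.2. Tpm3, a tropomyosin, was at 47.8 and 33.3, and Tmod2, the neuronal tropomodulin that caps actin filaments, at 42 and 29.5. Tmod1, the red-cell tropomodulin, had 20 and 42 counts, and Cast, the inhibitor of the calpains that cut spectrin, was at 0.88 and 0.56 TPM. Of the other contactin-associated genes, 4 of 5 were detected, led by Cntnap4 at 9.07 and 6.79 TPM, and Cntnap3 was at 0.4 and 0.29.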

How the data were processed

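Members and gene lists were chosen with earlier results of these data known. Per the notes deposited with the samples, the authors quantified genes and transcripts on mm10 with GENCODE release M4; the sources used here name neither aligner nor quantification program. In the deposited tables, estimated counts (expected counts) divide reads shared by several transcripts. The deposited TPM values correct for effective length and have an equal sum per library. The deposited FPKM values were used as an alternative. The percent of a gene per transcript and the TPM credibility bounds (a signal of read assignment) were used as deposited. Names, starts and coding sequences came from GENCODE M21, which matched 42462 of 43346 gene identifiers; a transcript was classed where its length equalled that of its M21 model.

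Levels are mean ± SD of TPM (n = 2); detected means at least 1 TPM in both libraries. Differences between libraries are log2 ratios of estimated counts rounded to whole numbers, plus 0.5, scaled by TMM (edgeR 4.0.16) where the counts of a gene summed to 10 or more, and called at 2-fold. Start groups joined starts within 500 bases. The step was tested on simulated data. A count of 0 allows up to 3 counts, or 0.065 CPM (counts rescaled by the library total) in replicate 1 and 0.0417 in replicate 2, for counting error only. The libraries differed by more than sampling noise (chi-square 51.4 per degree of freedom). Named genes were the 9 members, up to 5 genes per list by mean TPM, genes below 1 TPM in both libraries, genes of pairs, and leading or class-defining transcripts; other names were chosen after their values were seen, and some genes under this rule are not reported here. Alternatives were DESeq2 (1.42.0) size factors, spike-in scaling, FPKM, posterior means, coding transcripts only, other thresholds and pseudocounts, and each library left out; 1 was added after the data were seen. The tools were Python, numpy, pandas and matplotlib.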

Additional observations from a re-analysis of the deposited data

How the results depend on the processing

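The counts of results did not move by more than 1.5 times under any alternative run. All 9 genes were detected under each of them except a threshold of 5 TPM, which kept 6. The related genes detected ranged from 57 at 5 TPM to 75 with TPM rescaled over protein-coding genes, an alternative chosen after the data were seen. Leaving out a library gave 72 in each case, and 13 or 14 called pairs, against 72 and 13 with both. No member passed 2-fold between the libraries under any of the 5 alternative scalings or count estimates. Full-length forms led in 5 genes, without Ank3, when full-length meant 0.8 of the longest coding sequence, and 6 in all other cases. Leading transcripts matched between the libraries in 7 genes over coding transcripts alone. In that setting, which drops noncoding transcripts and those absent from M21, Ank2 was at 27.9 TPM in place of 77.2 and ranked 5 among the 9 in place of 2, Ank2 over Ank3 turned from a log2 ratio of 0.44 to -0.81, and Cntnap2 over Cntn2, at 1.51, was called. The log2 ratio of Ank1 between the libraries changed sign, from -0.06 to 0.38, on unscaled TPM. No paired analysis was possible because the samples form 1 group. Depth limits the shares of Ank1 and Sptbn4 transcripts most, since they rest on the fewest counts among the genes with several forms, and short models can hold a large TPM from few counts.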
